A study of Mus musculus with 238 samples.

Results

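Described here are 8 genes of the signalling system that vascular endothelial growth factor (VEGF) and the angiopoietins form on blood vessels, out of 21076 genes in the count table: the receptors Kdr, Flt1, Flt4, Tek and Tie1, and the ligands Vegfa, Angpt1 and Angpt2. They were taken by name, and all 8 had counts in brain and in liver. The set was selected on measured values, because Kdr had already been seen to be lower in the brains of dietary restricted mice in this same table. The diet values in brain are therefore given below as a description, without p-values. Counts of genes past a threshold there are printed as a description too, and nothing is read from them. The young plasma values, the liver values and the levels by region were not used in that choice and are tested. In brain, Kdr, Tek, Tie1 and Flt1 were lower in every restricted mouse than in every freely fed mouse, while the other 4 genes overlapped between the diets. In liver 0 of 7 genes tested passed the threshold between the diets, and in brain 0 of 8 did between young plasma and PBS.

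Messenger RNA was sequenced from C57BL/6JN mice, all 19 months old, in 2 experiments that shared no animal. For diet, 5 females were dietary restricted (aDR; DR on the liver labels) and 4 were fed freely (AL), which gave 131 libraries from 15 brain regions and 9 from liver. For plasma, 3 males received plasma of young mice (YMP) and 4 received PBS, both injected behind the eye, which gave 98 libraries from the same regions. Sex and experiment were the same split, so levels are compared within an experiment only, and the scaling of the libraries was computed for each experiment apart. A region had 5 aDR and 4 AL libraries apart from corpus callosum (4 and 3), entorhinal cortex (5 and 3) and hypothalamus (4 and 4), and 3 YMP and 4 PBS libraries apart from corpus callosum (2 and 3) and visual cortex, pons, hypothalamus, cerebellum and posterior hippocampus (3 and 3). The tissue was homogenised whole, so fewer vessel cells and less RNA per vessel cell cannot be told apart.

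VEGF-A is secreted by astrocytes, neurons and other cells, and binds the tyrosine kinases KDR and FLT1 on endothelial cells. KDR (VEGFR2) carries most of the growth and permeability signal, and FLT1 (VEGFR1) binds the ligand tightly, signals weakly and acts largely as a decoy. FLT4 (VEGFR3) is the receptor of VEGF-C and VEGF-D, best known from lymphatic vessels and sinusoids. The kinase TEK (TIE2) on endothelial cells is activated by angiopoietin 1, which keeps vessels quiescent and comes largely from mural and other perivascular cells, while angiopoietin 2, released by endothelium, can oppose it. TIE1 binds neither ligand strongly and modulates TEK.

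Counts per library summed to between 0.606 and 32.4 M (M, mega), with 8.44 M as the median and 6 libraries below 2 M. Over the brain libraries the median count was 468 for Flt1, 106 for Kdr, 94 for Tek, 83 for Tie1, 77 for Angpt1, 48 for Vegfa, 24 for Angpt2 and 19 for Flt4, so that Flt4 and Angpt2 are the least precise of the set. Flt4 and Angpt1 had 0 counts in 1 brain library each. Among the pons libraries for diet, that of aDR mouse 67 was unlike the rest: its 10 largest genes took 23.4% of the counts, against 5.72% to 7.12% elsewhere. It held 140935 CPM (counts per M counts of the library) of Prl, 30256 of Gh and 15275 of Cga, the transcripts of pituitary hormones, which reached at most 1349, 386 and 126 CPM in the other pons libraries. Kdr, Flt1, Flt4, Tek and Tie1 for diet are given with and without it.

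In the mouse genome (GRCm38) Kdr lies at chr5:75932827-75978458 and Flt1 at chr5:147561604-147726011, both on the minus strand. Tek is at chr4:94739289-94874976 on the plus strand, Tie1 at chr4:118471191-118490061 on the minus strand, and Flt4 at chr11:49609263-49652739 on the plus strand. Of the ligands, Vegfa is at chr17:46016993-46032369, Angpt1 at chr15:42424723-42676977 and Angpt2 at chr8:18690263-18741562, all on the minus strand. Counts were made without strand information. Of Angpt1, 737 exon bases are shared with the antisense gene Gm17473, so its counts are uncertain to that extent, while Angpt2 lies inside the antisense gene Mcph1 without a shared exon base.

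The sequences just before the annotated starts of Kdr, Flt1 and Tek are shown because these receptor genes were lower together in the restricted mice; the fourth, Tie1, is not shown because its window (3 of the cores described next) lies within annotated exons. They are RefSeq sequences of GRCm38.p6, written 5′ to 3′ on the strand of the gene, and capitals mark GGAA or its reverse complement TTCC, the core recognised by ETS factors of endothelial cells. The positions are chr5:75978459-75978605 for Kdr, chr5:147726012-147726161 for Flt1 and chr4:94739139-94739288 for Tek, all outside annotated exons.
Kdr: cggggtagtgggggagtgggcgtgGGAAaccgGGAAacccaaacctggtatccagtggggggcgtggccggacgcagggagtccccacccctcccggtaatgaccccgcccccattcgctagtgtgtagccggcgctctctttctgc
Flt1: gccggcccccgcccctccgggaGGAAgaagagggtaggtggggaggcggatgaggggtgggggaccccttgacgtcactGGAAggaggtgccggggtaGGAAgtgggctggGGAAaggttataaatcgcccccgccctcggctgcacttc
Tek: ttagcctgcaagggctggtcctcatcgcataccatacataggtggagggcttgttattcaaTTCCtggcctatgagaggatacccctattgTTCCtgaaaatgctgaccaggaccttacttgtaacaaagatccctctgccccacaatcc
The Flt1 stretch holds 4 such cores, those of Kdr (147 bases long) and Tek hold 2 each, and the windows of Vegfa, which did not separate the diets, hold 3 and 2. In the second Vegfa window 118 bases lie in annotated exons. The window of Flt4, which also overlapped between the diets, lies within exons and holds 1. Of 32851 windows of 150 bases before mouse gene starts, 80.8% hold at least 1, the median is 2, and 10.9% hold 4 or more, so Kdr and Tek are at the median. GC content was 67.3% for Kdr, 68.0% for Flt1 and 48.7% for Tek, against a median of 54.0% over all windows.

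Levels of different genes were compared in AL mice per kilobase of exon. In brain, Flt1 was the highest at 4.59 ± 0.297 CPM per kb (SD, n = 4), followed by Tek at 2.76 ± 0.122, Tie1 at 2.21 ± 0.0957, Angpt1 at 1.83 ± 0.0827 and Kdr at 1.76 ± 0.103. The ranges of Angpt1 and Kdr overlapped. Vegfa stood at 1.34 ± 0.0274, Angpt2 at 0.871 ± 0.182 and Flt4 at 0.305 ± 0.0312 CPM per kb (SD, n = 4 each). PBS mice gave the same highest and lowest gene, with Flt1 at 4.61 ± 0.605 and Flt4 at 0.279 ± 0.0375 CPM per kb (SD, n = 4 each). In AL liver, Vegfa was highest at 9.36 ± 5.05, then Kdr at 4.26 ± 1.03 and Flt4 at 1.93 ± 0.591 CPM per kb (SD, n = 4). Flt1 was at 0.83 ± 0.312 there, so that Kdr was above Flt1 in liver and below it in brain.

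The receptors varied less between brain regions than the angiopoietins. In AL mice the mean CPM of the highest region was 1.70 times that of the lowest for Kdr, 1.65 times for Flt1, 1.67 times for Tek, 1.73 times for Tie1 and 2.22 times for Flt4 (2.01 times without the entorhinal library of AL mouse 63, which had 0 counts of Flt4). For Vegfa the ratio was 1.82, for Angpt2 4.61 and for Angpt1 7.84. In PBS mice the ratios were 1.88 for Kdr, 2.31 for Flt1, 1.84 for Tek, 2.12 for Tie1 and 2.85 for Flt4. There Vegfa had 2.21, Angpt2 4.55 and Angpt1 11.1. An edgeR quasi-likelihood F test of the region terms with mouse as a block called 8 of 8 in AL and in PBS mice, where 98.3% and 97.7% of all genes tested were called, so a call here sets no gene apart.

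Angpt1 was highest in cerebellum of AL mice, at 15.9 ± 1.96 CPM (SD, n = 4), close to hypothalamus at 15.8 ± 4.07. It was lowest in caudate putamen, at 2.03 ± 1.07, after motor cortex at 2.74 ± 0.339 and visual cortex at 3.41 ± 0.805 CPM (SD, n = 4 each). The libraries of the 2 highest regions lay between 11.5 and 20.5 CPM and those of the 3 lowest between 0.727 and 4.22. PBS mice gave the same 3 lowest regions in the same order, caudate putamen at 2.12 ± 2.48 (SD, n = 4), while entorhinal cortex was highest at 23.7 ± 11.1 CPM (SD, n = 4). Over the libraries of PBS entorhinal cortex Angpt1 ran from 11.9 to 35.8 CPM.

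Angpt2 was highest in thalamus, at 8.59 ± 3.83 CPM in AL and 8.57 ± 1.83 CPM in PBS mice (SD, n = 4 each). The next region in both was olfactory bulb, at 3.99 ± 0.941 and 4.99 ± 1.57 CPM (SD, n = 4 each), and hypothalamus was lowest, at 1.86 ± 0.402 (SD, n = 4) and 1.88 ± 0.356 CPM (SD, n = 3). Thalamus libraries ran from 3.73 to 12.9 CPM in AL mice, overlapping olfactory bulb, and from 6.60 to 11.0 in PBS mice. Medulla, where Flt1, Flt4 and Tie1 were highest, was among the 3 lowest regions for Angpt2 in both experiments.

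Vegfa was highest in cerebellum in both experiments, at 8.32 ± 1.45 CPM (SD, n = 4) in AL and 9.82 ± 0.773 (SD, n = 3) in PBS mice, followed by olfactory bulb, medulla and motor cortex in both. Flt1 was highest in medulla, at 77.5 ± 13.0 CPM in AL and 84.6 ± 27.9 in PBS mice (SD, n = 4 each). Tie1 stood at 15.1 ± 1.81 and 14.4 ± 3.74 CPM in medulla, and Flt4 at 3.75 ± 0.605 and 3.88 ± 1.15 (SD, n = 4 each). Tek was highest in thalamus of AL mice, at 16.5 ± 3.54, and in medulla of PBS mice, at 16.4 ± 2.32 CPM (SD, n = 4 each). Choroid plexus had the lowest mean of Flt1, Flt4, Tek and Tie1 in PBS mice, while in AL mice SVZ was lowest for Flt1 and Tek, entorhinal cortex for Flt4 and visual cortex for Tie1. The entorhinal mean of Flt4 rests on the library at 0 counts, and without it choroid plexus was lowest at 1.87 CPM, with entorhinal cortex at 2.53 in the remaining 2 mice. Kdr did not keep an order: corpus callosum was highest and hypothalamus lowest in AL mice, at 19.5 ± 1.13 (SD, n = 3) and 11.5 ± 1.89 CPM (SD, n = 4), and olfactory bulb and cerebellum in PBS mice, at 19.5 ± 2.24 (SD, n = 4) and 10.4 ± 1.63 (SD, n = 3).

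Neighbours in these orders could mostly not be separated. Of the 14 pairs of neighbouring regions for each gene, at most 1 had libraries without overlap, which was the case for Tie1 in AL mice and for Vegfa and Angpt1 in PBS mice.

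**Figure D1:**
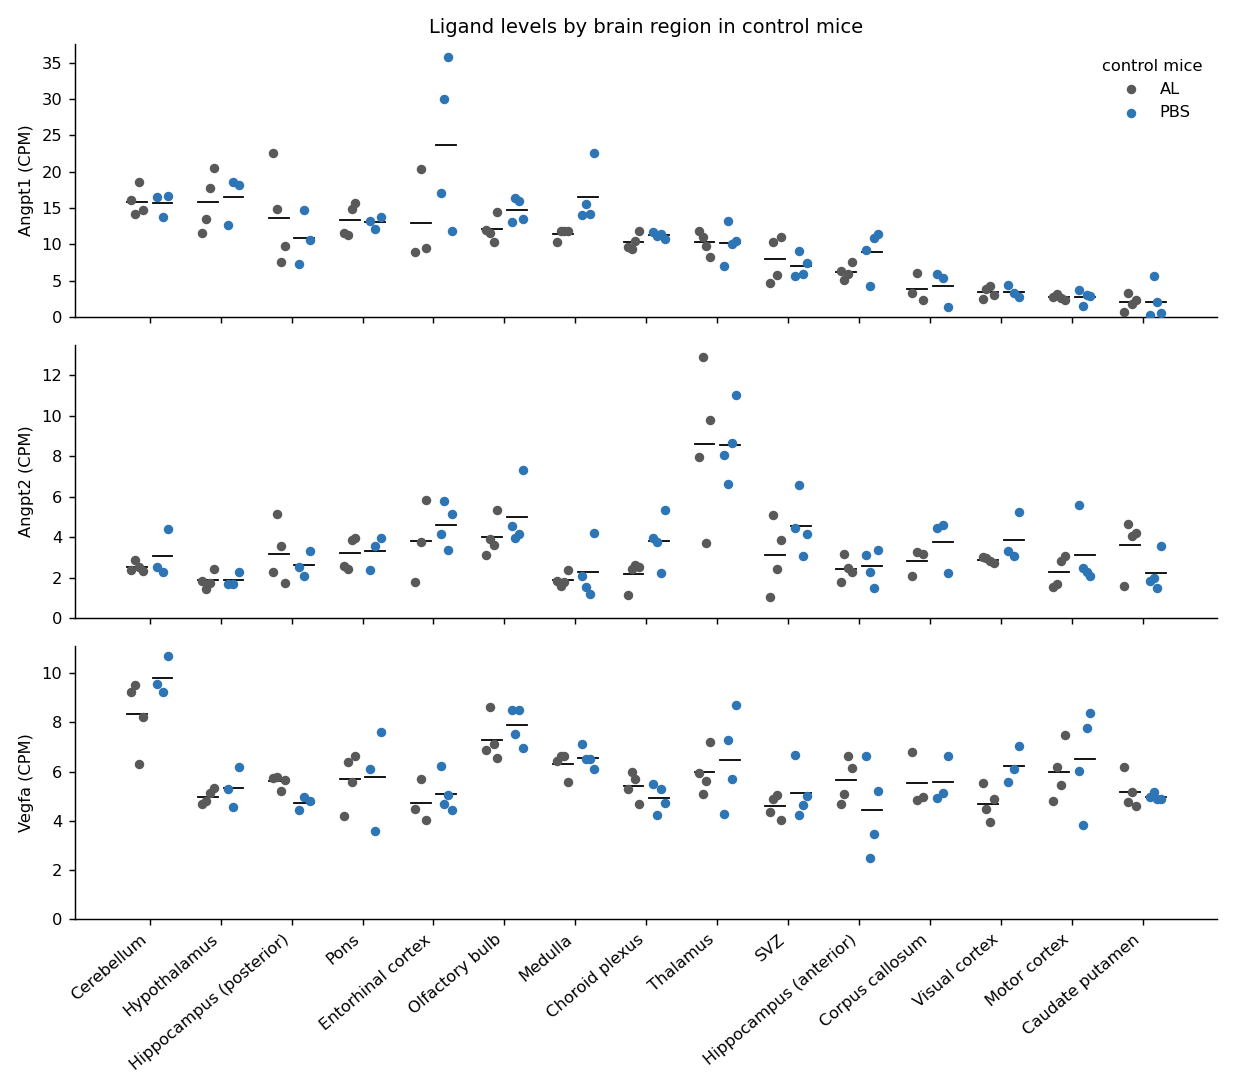
Level in CPM (y axis) of Angpt1, Angpt2 and Vegfa in each library of freely fed (AL) and saline-injected (PBS) mice for each brain region (x axis, ordered by the AL mean of Angpt1), with a line at the mean. Angpt1 is low in caudate putamen, motor cortex and visual cortex of both experiments, and Angpt2 is highest in thalamus.

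The diet experiment asked where restriction changes gene expression. For each mouse the regions were combined into 1 brain level per gene, the mouse term of a fit of log2 CPM on region and mouse. Kdr, the main VEGF receptor, stood at 14.4, 16.3, 16.2 and 16.4 CPM in AL mice 63, 66, 68 and 69, and at 10.8, 10.7, 11.9, 10.7 and 9.63 CPM in aDR mice 61, 62, 64, 65 and 67. Every aDR mouse lay below every AL mouse. The log2 difference was -0.56 (SE 0.063), which is a change of -32.1%, and it was -0.59 without the pons library of aDR mouse 67. Without that library the differences of the other receptors, described next, were -0.36 for Tek, -0.26 for Tie1, -0.24 for Flt1 and -0.100 for Flt4.

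Tek, the angiopoietin receptor, had brain levels of 12.4, 13.9, 12.7 and 12.8 CPM in AL mice 63, 66, 68 and 69 and of 10.4, 10.1, 9.82, 10.2 and 9.60 CPM in aDR mice 61, 62, 64, 65 and 67. The groups were again apart, with a log2 difference of -0.37 (SE 0.040), or -22.6%. Tie1, the partner of Tek, stood at 10.2, 11.4, 10.7 and 11.0 CPM in AL mice and at 9.29, 9.21, 9.18, 8.93 and 8.51 CPM in aDR mice, in the same order of mice. Its log2 difference was -0.26 (SE 0.040), or -16.5%. Flt1, the decoy receptor, stood at 55.7, 61.2, 63.5 and 62.8 CPM in AL mice and at 50.6, 53.1, 52.2, 49.3 and 49.4 CPM in aDR mice, a log2 difference of -0.26 (SE 0.044), or -16.2%. AL mouse 63 was the lowest AL mouse for these 4 genes.

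The remaining genes overlapped between the diets. Log2 differences were -0.081 (SE 0.089) for Flt4, -0.068 (SE 0.037) for Vegfa, -0.13 (SE 0.11) for Angpt1 and -0.014 (SE 0.12) for Angpt2. Vegfa, the ligand of Kdr and Flt1, ran from 5.20 to 5.83 CPM in aDR and from 5.74 to 6.00 in AL mice. Angpt1 ran from 5.84 to 8.33 against 7.13 to 8.95 CPM, and Angpt2 from 2.79 to 3.31 against 2.35 to 3.58. Flt4 ran from 2.23 to 2.60 CPM in aDR and from 2.10 to 2.88 in AL mice, and the difference of Angpt2 minus Angpt1, on the log2 scale, from -1.49 to -1.06 and from -1.60 to -1.18.

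In this contrast, which chose the set, Kdr, Tek, Tie1 and Flt1, 4 of the 8, were lower and under an adjusted p of 0.05 (limma, Benjamini-Hochberg over all genes). The share over all 15616 genes was 0.397%, and 4.14% of them had every aDR mouse below every AL mouse, as these 4 did. These counts come from the contrast in which Kdr had been seen to be lower, so they are a description and no test of the set. The number was 1 (Tek) without AL mouse 66, where Kdr stood at -0.54, and 2 (Kdr and Tek) without aDR mouse 61, 62 or 65 or AL mouse 68 or 69. It was 3 (Kdr, Tek and Tie1) without aDR mouse 64 or 67, and also without choroid plexus. With a mouse left out, Flt1 stayed under the threshold of adjusted p only without AL mouse 63.

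**Figure D2:**
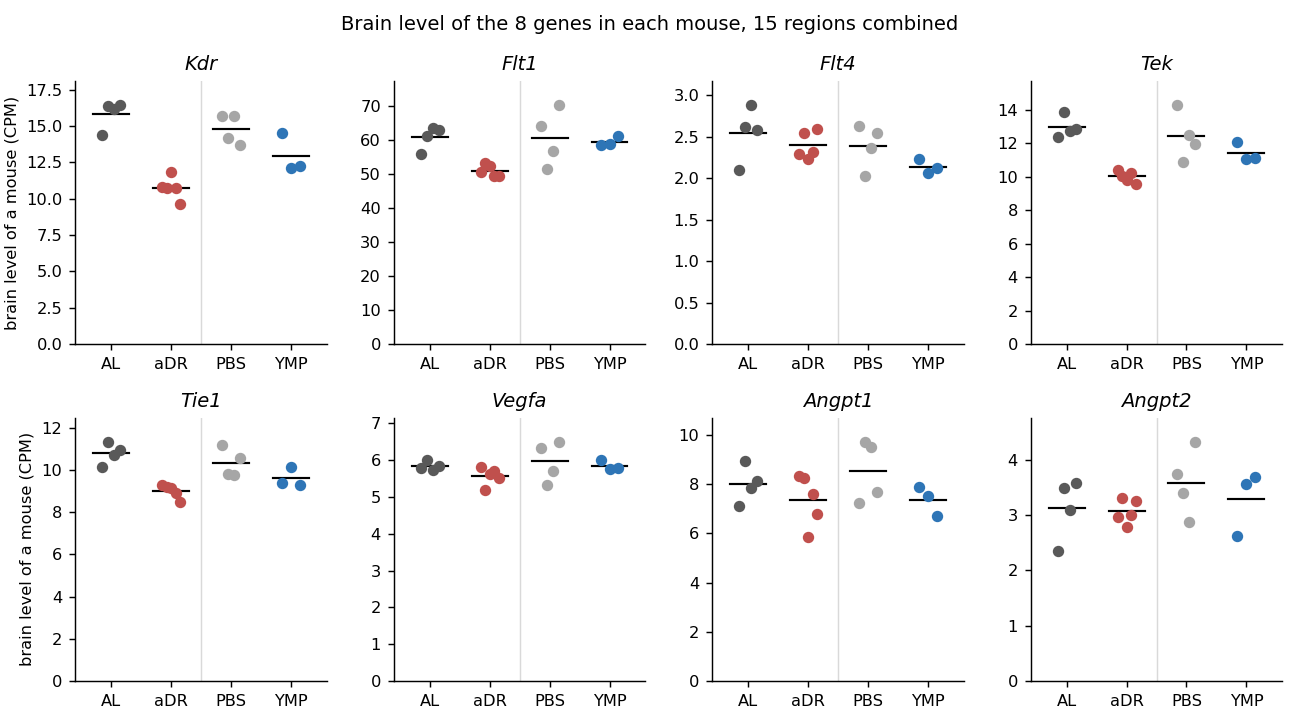
Brain level in CPM (y axis, from 0) of each of the 8 genes in each mouse, by treatment (x axis: AL and aDR of the diet experiment, PBS and YMP of the plasma experiment), with a line at the group mean. Kdr, Flt1, Tek and Tie1 show no overlap between AL and aDR mice, and all 8 genes overlap between PBS and YMP mice.

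Region by region, Kdr was lower in aDR mice in 14 of 15 regions, and the exception was pons. The log2 difference ran from -1.06 (SE 0.16) in cerebellum to 0.10 (SE 0.47) in pons. The value in pons was -0.017 with plain library totals in place of TMM scaling. In cerebellum Kdr stood at 12.4, 11.7, 18.7 and 16.2 CPM in AL mice 63, 66, 68 and 69 and at 6.74, 7.26, 7.86, 6.33 and 7.37 CPM in aDR mice 61, 62, 64, 65 and 67. In motor cortex the AL values were 12.02, 16.2, 18.5 and 19.2 CPM and the aDR values 11.2, 10.2, 10.6, 6.83 and 10.8 CPM, a log2 difference of -0.76 (SE 0.14). In both regions every aDR library lay below every AL library.

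The same separation held in thalamus, with AL libraries from 14.2 to 23.2 and aDR libraries from 8.83 to 11.4 CPM (log2 difference -0.86, SE 0.15). Corpus callosum held 18.3 to 20.5 CPM in AL and 8.54 to 13.1 CPM in aDR mice (-0.91, SE 0.16). In anterior hippocampus the ranges were 13.1 to 20.3 and 7.91 to 12.5 CPM (-0.83, SE 0.17), and in choroid plexus 15.9 to 18.8 and 9.35 to 13.5 CPM (-0.64, SE 0.13). Smaller differences with overlap were those in posterior hippocampus (-0.25, SE 0.17), entorhinal cortex (-0.29, SE 0.19), hypothalamus (-0.33, SE 0.19) and SVZ (-0.40, SE 0.28).

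In pons, Kdr stood at 50.7 CPM in the library of aDR mouse 67 and at 14.01, 11.6, 12.7 and 10.2 CPM in aDR mice 61, 62, 64 and 65, while AL mice 63, 66, 68 and 69 had 16.8, 19.1, 20.5 and 17.3 CPM. Without that library the log2 difference in pons was -0.60, Kdr was lower in 15 of 15 regions, and pons was a further region without overlap. Flt4 was also high in it, at 7.86 CPM against 1.69 to 3.07 in the other aDR pons libraries. Flt1, at 27.6 CPM against 45.2 to 66.9, was low there, and so was Tek, at 8.13 against 11.1 to 14.2 CPM. Without the library the log2 difference of Flt1 in pons was -0.42 in place of -0.55, that of Tek -0.32 in place of -0.40 and that of Tie1 -0.21 in place of -0.15. The part of the pituitary transcripts in these values was not tested.

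By the fitted log2 difference, Flt1, Tek and Tie1 were lower in aDR mice in 15 of 15 regions. The differences ran from -0.55 (in pons) to -0.059, from -0.63 to -0.11 and from -0.55 to -0.0078. For Tie1 that count depends on the fit, because in visual cortex its mean CPM was higher in aDR (8.96) than in AL mice (8.72). Groups did not overlap in 5 regions for Tek (cerebellum, choroid plexus, corpus callosum, motor cortex and pons), in 2 for Flt1 (cerebellum and entorhinal cortex) and in 1 for Tie1 (motor cortex). The share of all genes without overlap in a single region is not given here. These regions, and those named for Kdr, are therefore a description and set no gene apart. In corpus callosum Tek stood at 6.26 to 11.6 CPM in 4 aDR libraries and at 12.4 to 16.3 CPM in 3 AL libraries, the largest of its differences (-0.63, SE 0.21). In motor cortex Tie1 ran from 5.64 to 9.18 in aDR and from 11.1 to 11.9 CPM in AL libraries (-0.55, SE 0.13). Flt4 was lower in 11 regions (12 without the pons library of aDR mouse 67), Angpt2 in 9, and Vegfa and Angpt1 in 8 each, always with overlap. Over 12385 genes tested in all regions, 2.92% were lower in 14 or more of them and 0.840% in all 15, and the median gene was lower in 7. The tests within regions use the same contrast: 2 of 120 (Kdr in cerebellum and in motor cortex) were under an adjusted p of 0.05 and lower in edgeR, where the share over 205693 tests of 1 gene in 1 region was 0.0156%. That count is given as a description, and it was 0 without aDR mouse 61, 65 or 67 or AL mouse 66, 68 or 69.

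**Figure D3:**
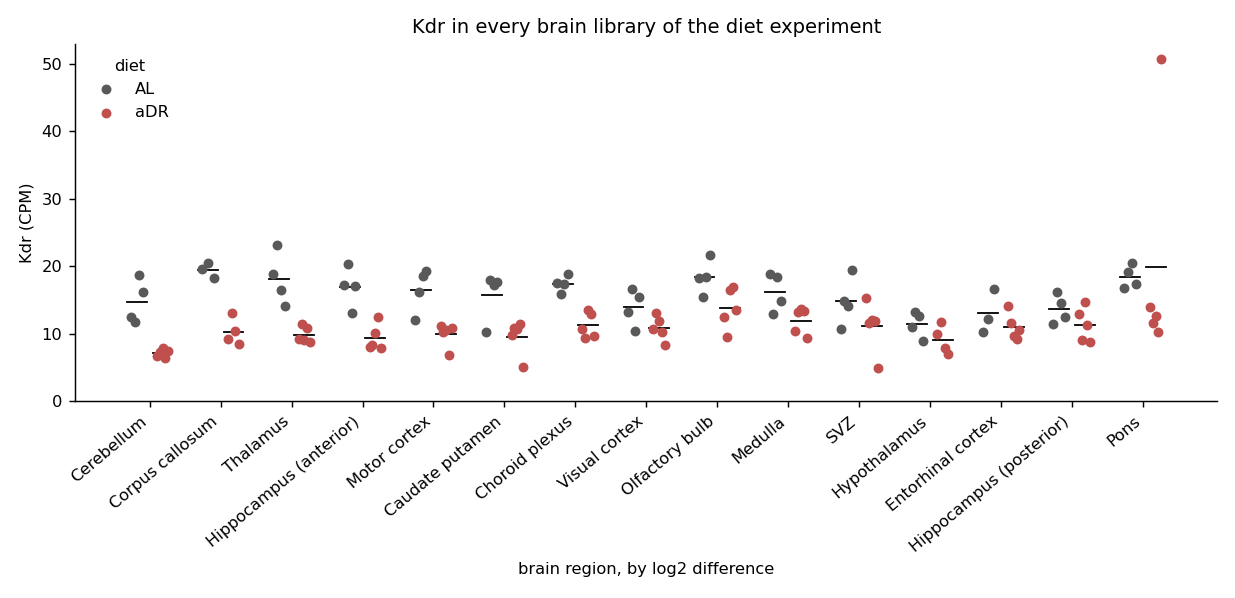
Kdr in CPM (y axis, from 0) in every brain library of the diet experiment, for freely fed (AL) and restricted (aDR) mice, with regions on the x axis in order of the log2 difference and a line at each group mean. The aDR libraries lie below the AL libraries in the regions at the left, and the single high point at 50.7 CPM is the pons library of aDR mouse 67.

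Other genes of the vessel wall were set beside the 8 from the same contrast, again as a description. Of 26 brain endothelial markers, 3 were lower and past the threshold: Cldn5, a tight junction claudin (-0.48, SE 0.084), Icam2, an adhesion molecule (-0.43, SE 0.080), and Emcn, a sialomucin (-0.35, SE 0.059). Mfsd2a, a lipid transporter of the blood-brain barrier, was higher (0.37, SE 0.059). Abcg2, a drug efflux pump, stood at 0.25 (SE 0.057) and the cadherin Cdh5 at -0.35 (SE 0.13), neither past the threshold. The median of the 26 was -0.070, against -0.006 over all genes, and their summed level ran from 833 to 922 CPM in aDR and from 798 to 927 CPM in AL mice. Of the 26, 16 were lower. In 6 of them every aDR mouse lay below every AL mouse, and in 1 of the 26 every aDR mouse lay above. Over all 15616 genes, 646 (4.14%) lay wholly below and 650 wholly above. The mean log2 level of these markers was subtracted from that of Kdr: the remainder was between -0.95 and -0.62 in aDR and between -0.35 and -0.24 in AL mice. For Tek the same remainder ran from -0.96 to -0.78 against -0.70 to -0.48, for Flt1 from 1.41 to 1.52 against 1.62 to 1.67, and for Tie1 from -1.13 to -0.98 against -0.95 to -0.77. These remainders use the values that chose the set, and no cell number is measured by them. Kdr minus Flt1 was between -2.36 and -2.14 in aDR and between -1.97 and -1.91 in AL mice.

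Of 15 mural cell markers, 2 were lower and past the threshold, the pericyte genes Higd1b (-0.35, SE 0.042) and Ndufa4l2 (-0.30, SE 0.048). Of the 15, 10 were lower, against 8336 of all 15616 genes. In 5 of them every aDR mouse lay below every AL mouse, as in 4.14% of all genes, and in 0 every aDR mouse lay above. The potassium channel subunit gene Kcnj8 stood at -0.25 (SE 0.069). The median of the list was -0.12, and its summed level ran from 167 to 194 CPM in aDR and from 182 to 206 in AL mice. The smooth muscle genes Tagln, Myh11 and Cnn1 were at 0.096, 0.11 and 0.12. All 5 erythroid markers were higher in aDR mice, by a median of 0.93, without a call in limma, and their sum ran from 8.97 to 37.1 CPM in aDR and from 9.85 to 11.4 CPM in AL mice. The part of these lists in the values of the 8 genes was not tested.

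**Figure D4:**
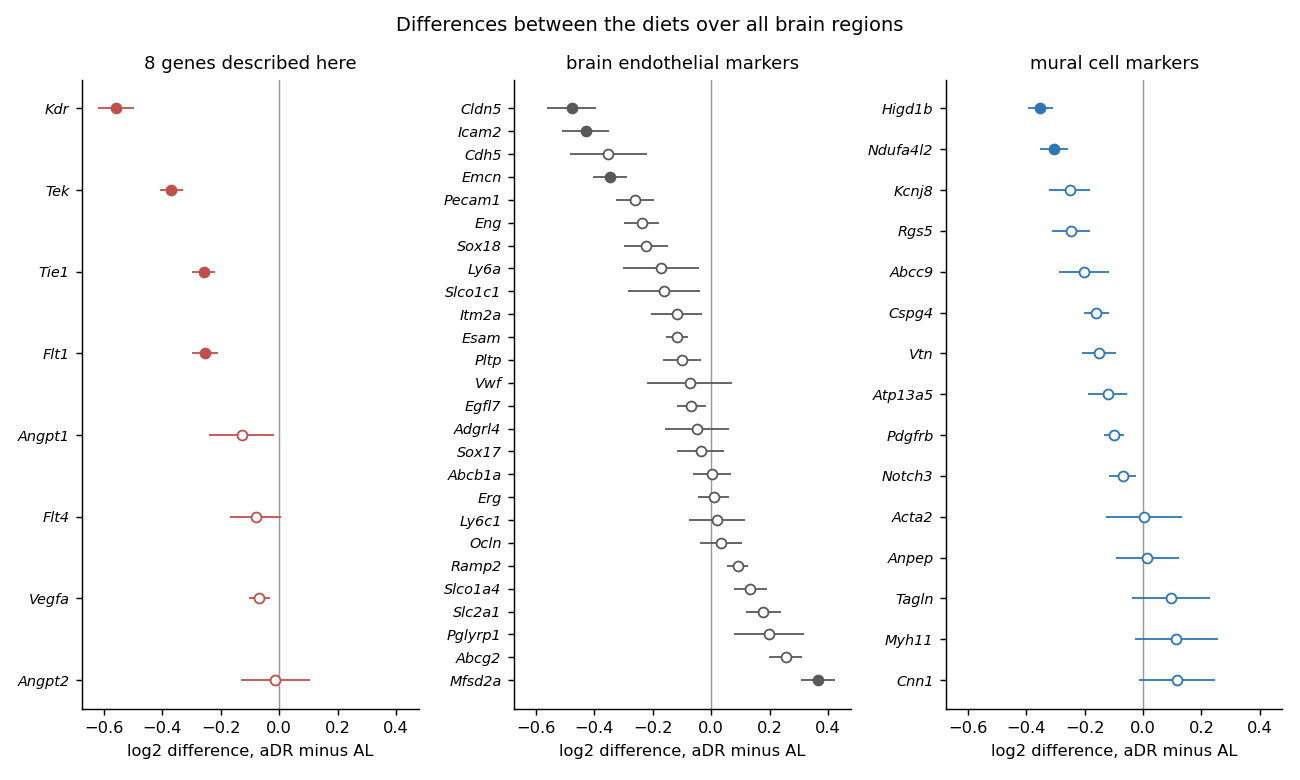
Log2 difference of aDR minus AL mice over all brain regions (x axis) with its SE as a bar, for the 8 genes, 26 brain endothelial markers and 15 mural cell markers (y axis). Filled points are past an adjusted p of 0.05 in limma, given as a description. Kdr lies at -0.56 and the lowest endothelial marker, Cldn5, at -0.48. Kdr had been seen to be low in this contrast before, so its place below the markers is no result.

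The rest of the pathway was read from the same contrast, where 144 of 15616 genes passed the threshold in either direction. Of 10 further ligands, co-receptors and modulators that passed the filter on low counts, 1 was past the threshold: Vegfc, a ligand of FLT4, at -0.19 (SE 0.032). In that list 9 of 10 were lower, against 8336 of all 15616 genes. In 2 of them every aDR mouse lay below every AL mouse, as in 4.14% of all genes. Ptprb, the phosphatase that acts on TEK, stood at -0.24 (SE 0.053) and Nrp1, a co-receptor of KDR, at -0.19 (SE 0.068). Of 16 genes that signal below the receptors 0 were past it in limma, with Nos3 at -0.15, Plcg1 at -0.088 and Foxo1 at 0.12. Of 15 VEGF-responsive endothelial genes 0 were past it as well. Mcam and Unc5b were lowest at -0.34 each, and Plvap and Nr4a1 highest at 0.19 and 0.21. The hypoxia-inducible list of 18 genes had Egln3, a prolyl hydroxylase, lower (-0.25, SE 0.039) and Mxi1 higher (0.15, SE 0.027).

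The plasma experiment asked the same of young plasma, and its contrast was not used to choose the genes. Across regions 0 of 8 genes were called by limma, 0 of them at an unadjusted p under 0.05, and the background was 0% (0 of 15768 genes, with 1275 at an unadjusted p under 0.05). Kdr stood at 15.7, 14.1, 15.7 and 13.7 CPM in PBS mice 72, 76, 80 and 84 and at 14.5, 12.1 and 12.2 CPM in YMP mice 73, 77 and 81. Mice 77 and 81 lay below all PBS mice and mouse 73 among them. The log2 difference was -0.20 (SE 0.084, 95% interval -0.41 to 0.021, limma adjusted p 0.621). A limma voom fit of all libraries with no replicate block, which counts the regions of a mouse as independent, called Kdr (-0.20, adjusted p 0.00778), and the same fit with mouse as the replicate block did not (-0.19, adjusted p 0.156). The share of all genes called without the block is not given here. Over the alternative settings the calls over all genes ran from 0 to 2629, so that call does not set Kdr apart.

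Tek stood at 14.3, 10.9, 12.5 and 11.99 CPM in PBS mice and at 12.1, 11.0 and 11.1 CPM in YMP mice, in the same order of mice, a log2 difference of -0.12 (95% interval -0.35 to 0.12, limma adjusted p 0.780). For Flt1 the PBS mice ranged from 51.3 to 70.2 CPM and enclosed the YMP mice at 58.5 to 61.2 CPM, with a difference of -0.018 (-0.29 to 0.25, adjusted p 0.969). Tie1 differed by -0.11 (-0.27 to 0.058, adjusted p 0.706) and Flt4 by -0.15 (-0.39 to 0.082, adjusted p 0.702). Of the ligands, Vegfa differed by -0.026 (-0.22 to 0.17, adjusted p 0.936), Angpt1 by -0.20 (-0.51 to 0.11, adjusted p 0.700) and Angpt2 by -0.12 (-0.55 to 0.31, adjusted p 0.860). All 8 were on the lower side, as were 8161 of all 15768 genes, and the 8 were measured in the same mice. All 8 overlapped between the groups, while 10.1% of all genes did not overlap. All 8 intervals reach below 0, so for each gene a decrease down to the lower end of its interval was not excluded. The diet differences of Flt1 and Tie1 (-0.26 each) lie inside their plasma intervals. Those of Kdr (-0.56) and Tek (-0.37) lie below theirs, which end at -0.41 and -0.35. The experiments differ in sex, and a difference between them was not tested.

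Within regions 0 of 119 tests of the 8 genes were called for plasma in edgeR, with 13 at an unadjusted p under 0.05, and DESeq2 called 0. The background of calls was 0.0127% of 205500 tests. Over all genes, those at an unadjusted p under 0.05 in edgeR ran from 150 of 13135 in pons to 1910 of 14120 in SVZ. Flt4 passed the filter in 14 of the regions. The smallest unadjusted p was that of Tie1 in visual cortex, at 6.08 to 8.60 CPM in 3 YMP libraries and 9.09 to 13.0 CPM in 3 PBS libraries (log2 difference -0.68, SE 0.19, edgeR adjusted p 0.999). Flt1 and Tek were also lower without overlap in visual cortex, by log2 differences of -0.30 and -0.35 (edgeR adjusted p 0.999 each). Kdr was lower without overlap in olfactory bulb, with the highest YMP library at 16.18 and the lowest PBS library at 16.20 CPM (-0.31, SE 0.12, edgeR adjusted p 0.5256). Angpt1 was lower without overlap in medulla, at 10.7 to 12.7 in 3 YMP and 13.98 to 22.6 CPM in 4 PBS libraries (-0.56, SE 0.19, edgeR adjusted p 0.459), and in SVZ, at 3.97 to 5.41 and 5.66 to 9.06 CPM (-0.65, SE 0.24, adjusted p 0.304). Groups without overlap also had YMP above PBS: Flt4 (0.33, SE 0.38) and Tie1 (0.30, SE 0.23) in corpus callosum, with 2 YMP libraries, and Vegfa in medulla (0.19, SE 0.15). Others had YMP below PBS, namely Flt4 in caudate putamen (-0.85, SE 0.39), Vegfa in corpus callosum (-0.69, SE 0.33) and SVZ (-0.55, SE 0.24), and Tek in olfactory bulb (-0.35, SE 0.15) and SVZ (-0.18, SE 0.14). How many of all genes lay apart in single regions of these small groups is not given here. The cases without overlap are therefore a description, and none was called. Angpt1 was lower in 11 of 15 regions, Kdr, Tie1 and Angpt2 in 10, Flt1 and Tek in 9, Vegfa in 7 and Flt4 in 9 of 14, where the median gene was lower in 8 of 15.

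A test of whether the plasma difference varied from region to region (edgeR, all interaction terms together) called 0 of the 8 genes, against a background of 0.786%. An unadjusted p under 0.05 was found for 2 of the 8, and the share of all genes under it is not given here. These 2 were Angpt2 (adjusted p 0.457) and Tie1 (adjusted p 0.622). Angpt2 ran from a log2 difference of -1.04 (SE 0.43) in motor cortex to 1.04 (SE 0.37) in posterior hippocampus, neither called by edgeR. In motor cortex Angpt2 ran from 1.53 to 1.66 CPM in YMP and from 2.10 to 5.58 CPM in PBS mice.

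**Figure D5:**
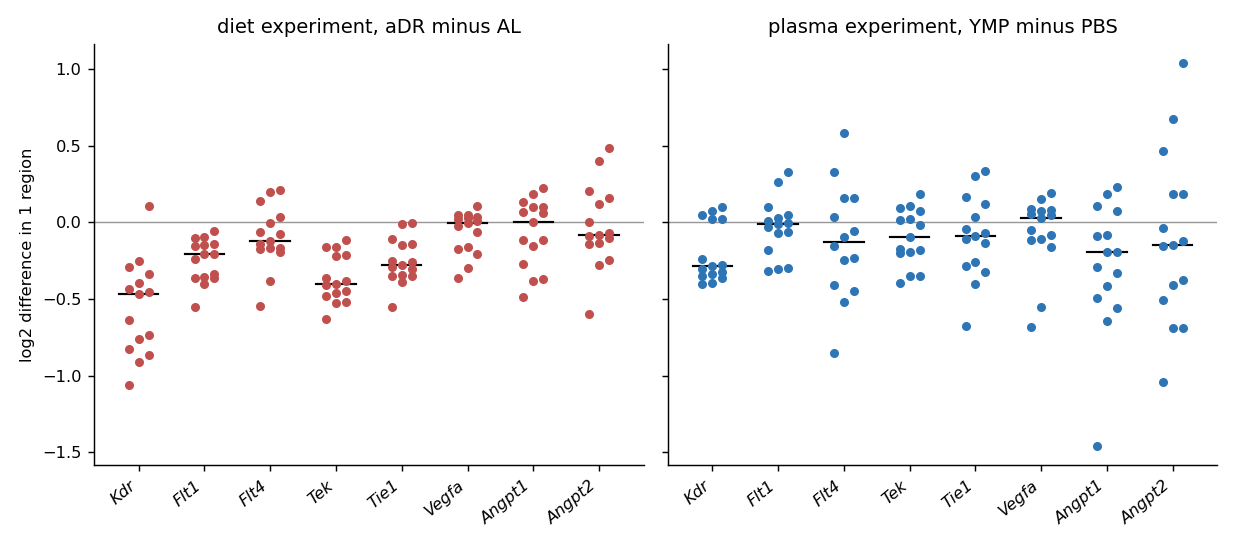
Log2 difference in each brain region (points) and the median over regions (line) for each of the 8 genes, for aDR minus AL mice at the left and YMP minus PBS mice at the right (y axis, log2). In the diet panel Flt1, Tek and Tie1 have all points below 0 and Kdr all but pons, and in the plasma panel each gene has points on both sides.

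The lists gave 0 calls for plasma in limma. Brain endothelial markers had a median of -0.013 and sums of 796 to 830 CPM in YMP and 819 to 911 CPM in PBS mice, and mural markers a median of -0.014. Choroid plexus epithelial markers were lower in YMP mice for 12 of 12 genes, led by Ttr (-2.29, SE 0.55). Of these, 10 were without overlap, where 842 of all 15768 genes lay wholly below. Their median was -1.18, with sums of 325 to 1867 CPM in YMP against 2089 to 5565 CPM in PBS mice. Fibroblast markers were lower for 8 of 8 (median -0.30). Without the choroid plexus libraries the plasma difference of Kdr was -0.19 and that of Flt4 -0.16. The part of plexus or fibroblast RNA in the values of the 8 genes was not tested otherwise. Ccbe1, a cofactor of VEGF-C processing, had the lowest value among the further ligands and modulators (-0.44, SE 0.15, limma adjusted p 0.520).

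Liver, sequenced in the diet experiment to check the restriction, gave a test in tissue that the choice of the genes did not use. Of the 8 genes 7 passed the filter, edgeR called 0, 0 had an unadjusted p under 0.05, DESeq2 called 0, and the background was 0.22% of 11815 genes. Angpt2 had 4 to 15 counts a library and was not tested. Kdr, which marks sinusoidal endothelium in liver, stood at 33.4, 50.4, 29.3 and 40.7 CPM in AL mice 63, 66, 68 and 69 and at 39.9, 39.9, 39.5, 39.0 and 21.1 CPM in DR mice 61, 62, 64, 65 and 67. The DR mice lay inside the AL range apart from mouse 67, which was lowest. The log2 difference was -0.10 (SE 0.22, 95% interval -0.63 to 0.42, edgeR adjusted p 0.963). That interval includes the brain value of -0.56, so a difference of the size seen in brain was not excluded in liver, and the difference between liver and brain was not tested.

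For the other receptors in liver the log2 differences were 0.18 (SE 0.30, edgeR adjusted p 0.946) for Flt1, 0.10 (SE 0.23, adjusted p 0.967) for Flt4, -0.0068 (SE 0.22, adjusted p 0.997) for Tek and -0.0023 (SE 0.18, adjusted p 0.999) for Tie1. Vegfa was the most variable member there, at 21.4, 69.2, 43.7 and 26.2 CPM in AL mice and 24.6, 84.6, 79.8, 31.7 and 15.7 CPM in DR mice (0.25, SE 0.51, edgeR adjusted p 0.959). High and low Vegfa libraries occurred in both groups. Angpt1 had 5 to 25 counts a library and a difference of 0.29 (SE 0.33, adjusted p 0.905). The hepatocyte markers, at 66988 to 100632 CPM in sum against at most 4.37 in brain, and liver sinusoidal markers, at 222 to 412 CPM, were those of liver in all 9 libraries.

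The genes most like each member were read over 229 brain libraries, as the correlation of log2 CPM after the mean of each region and treatment group had been subtracted, among 12024 genes. Libraries share depth and tissue makeup, so this is a description. Flt1 was most like Ptprb (r = 0.76), Eng (0.73) and Ltbp4 (0.69), and Eng and Flt1 were also among the top 3 of Tek (0.55 and 0.56) and Tie1 (0.55 and 0.53). For Kdr the result rested on the pons library of aDR mouse 67. With it Kdr was most like the pericyte gene Rgs5 (0.55), Gper1 (0.50) and Fam114a1 (0.48), and its r was 0.25 with Flt1, 0.21 with Tek and 0.38 with Tie1. Over the other 228 libraries it was most like Ets1 (0.52), a transcription factor gene, Eng (0.50) and Alpl (0.48), and its r was 0.42 with Flt1, 0.32 with Tek and 0.39 with Tie1. Angpt1 was most like Thbs2 (0.60), Nr2f2 (0.58) and Lypla1 (0.58), and Angpt2 like Colec12 (0.48), Igfbp7 (0.47) and Timp3 (0.45). Vegfa was most like Dazap1 (0.46), Dynll2 (0.45) and Ogdhl (0.43) and Flt4 like Cc2d2a (0.36), Myh9 (0.35) and Adgrl4 (0.35). Without that library the top 3 of Flt1, Tek, Tie1, Vegfa and Angpt2 were the same genes, those of Flt4 became Adgrl4, Eng and Ptar1 (0.37, 0.35 and 0.34), and those of Angpt1 became Thbs2, Dpysl3 and Nudt4 (0.63, 0.62 and 0.60).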

How the data were processed

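The authors deposited 1 table of raw counts, whole reads for each gene and library. Per the labels' protocols, tissue was homogenised and RNA purified on RNeasy columns, cDNA was made with Smart-Seq2 and unstranded libraries with Nextera XT. The submitters' processing notes name Trim Galore 0.3.7, STAR 2.5.3a, DESeq2 and GRCm38; the counting program and annotation are not given in the sources used here.

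From these counts, each region and liver was tested alone with edgeR 4.0.16 (R 4.3.3; quasi-likelihood test, filterByExpr with minimum count 10 and total 15, TMM scaling) without covariates. Across regions, limma 3.58.1 compared 1 value per mouse, the mouse term of a region and mouse fit to log2 CPM (prior count 2), because regions of 1 mouse are not independent. DESeq2 1.42.0 was an alternative. P-values were two-sided, adjusted by Benjamini-Hochberg over all genes, and called under 0.05. CPM use TMM-scaled totals over all brain libraries of an experiment, with liver apart. Gene models are GENCODE annotation of GRCm38. Fits were tested on simulated data.

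Mouse numbers in the labels mark the same animal in all its regions and pair no treatments. Deviations correlated by 0.040 within and -0.005 between mice for diet, and by 0.072 and -0.012 for plasma. The 357 replicate pairs differed beyond sampling noise (chi-square per degree of freedom at least 1.29), and all libraries were kept. Mice are separate animals, and reads carry no molecular identifiers. The members and gene lists were chosen with earlier results of these data known. Named genes are the 8 members, list genes called in the plasma or liver comparisons, the 3 highest and 3 lowest of each list in a comparison across regions, and the 3 genes most correlated with a member; Emcn was added after its values were seen.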

Additional observations from a re-analysis of the deposited data

Results flagged for a closer look

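Group values were examined for a mouse or library far from the others of its group, in 77 groups of 4 or 5, for the brain and liver levels of the 8 genes and for Kdr in each region. Chance would give about 3.85 such groups, and 8 were found. For the brain level of Kdr, AL mouse 63 was low, at 3.84 on the log2 scale, where AL mice 66, 68 and 69 had 4.02 to 4.04; it still lay above every aDR mouse. In caudate putamen the same mouse had 10.3 CPM of Kdr against 17.2 to 17.95, and aDR mouse 67 had 4.99 against 9.84 to 11.5. In motor cortex aDR mouse 65 had 6.83 CPM of Kdr against 10.2 to 11.2. The pons library of aDR mouse 67, which holds pituitary hormone transcripts, had 50.7 CPM of Kdr against 10.2 to 14.01. In liver the same mouse was low, with 21.1 CPM of Kdr against 39.0 to 39.9. In entorhinal cortex PBS mouse 80 had 11.5 CPM of Kdr against 13.4 to 13.7. In liver AL mouse 63 had 5.16 CPM of Tie1 against 7.11 to 7.45.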

How the results depend on the processing

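Leaving out 1 mouse at a time, the number of the 8 genes past the threshold for diet across regions ran from 1 to 4 (4 with all mice), with 1 without AL mouse 66 and 2 without aDR mouse 61, 62 or 65 or AL mouse 68 or 69. The log2 difference of Kdr then ran from -0.61 to -0.52, of Tek from -0.40 to -0.34, of Tie1 from -0.29 to -0.23 and of Flt1 from -0.30 to -0.23. Member tests past it within regions ran from 0 to 2. DESeq2 gave 6, while calls over all genes ran from 95 to 522 under other settings, against 108. The share over all genes in DESeq2 alone is not given here. Its count is therefore a description and sets no gene apart. Mouse numbers pair the regions of an animal. With the replicate block (mouse) over all libraries, 4 of the 8 genes were past the threshold for diet and 0 for plasma, as by mouse, so it changed no call of the 8 genes. With no replicate block the numbers were 4 and 1 (Kdr). That fit counts the regions of a mouse as independent, and its share over all genes is not given here, so these numbers set no gene apart. Some plasma differences changed sign: Dok2 was 0.065 with the replicate block and 0.0074 without it, Vegfc 0.013 without choroid plexus. With 1 mouse left out, Flt1 ran from -0.090 to 0.052, Vegfa from -0.076 to 0.015, Angpt2 from -0.22 to 0.043, Vegfc from -0.038 to 0.063, Nrp2 from -0.056 to 0.16, Adgrl4 from -0.0089 to 0.12 and Notch3 from -0.21 to 0.0074. In liver Kdr then ran from -0.21 to 0.053, Tek from -0.11 to 0.11, Tie1 from -0.11 to 0.061, Flt4 from -0.059 to 0.29 and Vegfa from -0.063 to 0.65. The cause of these changes was not tested. Over all genes, diet across regions gave 144 calls, 14 to 163 with 1 mouse left out and 125 to 2760 under other settings; plasma across regions 0, 0 to 1 and 0 to 2629; diet within regions 108, 37 to 160 and 95 to 522; plasma within regions 26, 1 to 777 and 44 to 932; liver 26, 7 to 55 and 24 to 220; and the plasma difference between regions 124, 3 to 155 and 10 to 187. Settings without the pons library of aDR mouse 67, without the entorhinal library of AL mouse 63 for Flt4, without libraries under 2 M counts, and without corpus callosum and choroid plexus were chosen after seeing the data. Few mice and, for Flt4 and Angpt2, few counts limit the precision.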
